A study of Mus musculus with 16 samples.

Results

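The genes studied were those for the proteins of the cytosolic ribosome, in colonic epithelial cells that had expressed Atoh1 and in the other epithelial cells of the same colons. They were taken by name: every mouse gene with an Rpl or Rps symbol of the numbered series, together with Rplp0, Rplp1, Rplp2 and Rpsa, and without pseudogenes. This gave 83 genes of the 45513 in the count files, spread over 19 chromosomes. A further 5 symbols of the same form were left out because the annotation calls them pseudogenes. All but 3 of the genes, 80, had enough reads to pass the filter on low counts.

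A ribosome has a small subunit, which reads the mRNA, and a large subunit, which joins the amino acids. Each subunit is built from ribosomal RNA and from many different proteins, most of them needed in a single copy per ribosome and encoded by genes scattered over the genome. Their mRNAs begin with a C followed by a run of C and T, the TOP motif, through which the mTOR pathway controls how many of them are translated. Goblet cells, the main Atoh1-dependent cells of the colon, make and secrete large amounts of mucin on ribosomes at the endoplasmic reticulum.

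All samples came from 8 Atoh1(WT)CreERT2; Rosa26tdTom/+ mice aged 8 to 16 weeks, which were on the C57BL/6 background and of both sexes. In these knockins CreERT2 sits behind the Atoh1 coding sequence on both alleles, so that tamoxifen turns on tdTom for good in cells that express Atoh1 and in whatever they later become. Every mouse received tamoxifen, at 1 mg per day on 3 days by the sample labels. The study's account of animal treatment gives this dose for defining its Atoh1 secretory signature, which compared tdTom+ with tdTom− cells. Its sequencing methods give a different dose and name only tdTom+ cells. Live EpCAM+ cells of colonic crypt fractions were sorted into tdTom+ and tdTom− cells, so each group held 8 libraries and each mouse gave 1 to each group. The tdTom− cells are a mixture: all epithelial cells in which Cre had not acted.

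The libraries held 16482530 to 24218367 counts in tdTom+ cells and 18318172 to 45791503 in tdTom− cells, and 1 tdTom− library, that of mouse 4, stood far above the rest. The sort separated the lineages. All 10 goblet cell markers were higher in tdTom+ cells, at a summed 51580 to 107335 CPM (counts per 1e6 counts) against 2277 to 8832 CPM, and all 10 absorptive markers were lower, at 759 to 1150 CPM against 8305 to 16720 CPM. Of the enteroendocrine, tuft and proliferation markers, 9 of 10, 8 of 9 and 9 of 10 tested were lower in tdTom+ cells, and of the 10 stem cell markers 4 were higher and 6 lower. Immune markers summed to at most 12.6 CPM in tdTom+ and 37.8 CPM in tdTom− libraries and stromal markers to at most 15.5 and 24.3 CPM, with 2 of 3 tested lower in each list. Cd3g, Cdh5 and Dcn were among the markers at 0 in all tdTom+ libraries. The part of cell makeup in the results that follow was not tested. In such bulk samples more cells of a kind that uses a gene and more RNA of that gene per cell cannot be told apart.

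A long run of C and T near the start was more frequent in these genes than among all genes, though most of them lacked it. RefSeq promoters of the GRCm38.p6 build, from 250 bases before the start to 50 after it, were matched for 63 of the 83 genes. The longest unbroken run of C and T that overlapped the 10 bases on either side of the start had at least 8 bases in 27 of them (42.9%), against 13.5% of 27025 promoters of all genes. Shown here, from 50 bases before the start to 20 bases from it on, are the member with the largest difference between the sorted populations and its paralog, the members with the next largest difference in the large subunit (Rpl38) and the largest in the small (Rps12), and a pair of members that did not pass the test. Capitals mark that run. It did not have to begin with a C or at the start itself, so it is wider than the TOP motif.
Rpl22l1, chr3:28805458-28805527, plus strand: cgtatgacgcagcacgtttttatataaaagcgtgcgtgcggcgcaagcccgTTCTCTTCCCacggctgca
Rpl22, chr4:152325676-152325745, plus strand: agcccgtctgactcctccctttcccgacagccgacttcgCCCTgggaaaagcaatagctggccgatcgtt
Rpl38, chr11:114668530-114668599, plus strand: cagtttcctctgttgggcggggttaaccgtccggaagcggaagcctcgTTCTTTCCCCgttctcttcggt
Rps12, chr10:23787190-23787259, minus strand: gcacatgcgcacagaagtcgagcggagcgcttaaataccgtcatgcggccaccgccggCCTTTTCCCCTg
Rps26, chr10:128626487-128626556, minus strand: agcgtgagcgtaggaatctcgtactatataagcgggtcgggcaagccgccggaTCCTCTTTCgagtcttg
Rps2, chr17:24720013-24720082, plus strand: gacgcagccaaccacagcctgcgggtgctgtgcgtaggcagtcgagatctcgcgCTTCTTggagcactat
The runs of Rpl22l1, Rpl38 and Rps12 had 10, 10 and 11 bases, and those of Rpl22 and Rps2 had 4 and 6. Rpl10, whose sequence is not shown, had a larger difference than Rps12 and a run of only 3 bases. Rps26, which did not pass the test, had a run of 9.

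Ribosomal protein mRNA was higher in tdTom+ cells for nearly all of the set. With the mouse as a block in edgeR's quasi-likelihood test, 75 of the 80 genes tested were higher in tdTom+ cells at an adjusted p under 0.01, where 28.4% of all 15841 genes tested were, and 0 were lower, where 28.9% of all genes were. Every one of the 80 had a log2 fold change above 0, as 50.3% of all genes did, so that 0 were lower at an unadjusted p under 0.05 too, and 0 were lower by DESeq2 or limma-voom. The changes were small and close together. The log2 fold changes ran from 0.07 to 0.77 with a median of 0.36, a 1.28-fold difference. The median over all genes tested was 0.00, and the scaling of the libraries holds it near 0. Without the mouse as a block 54 of the 80 passed, where 25.5% of all genes did, with a median of 0.39 and all of them higher in tdTom+ cells.

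**Figure D1:**
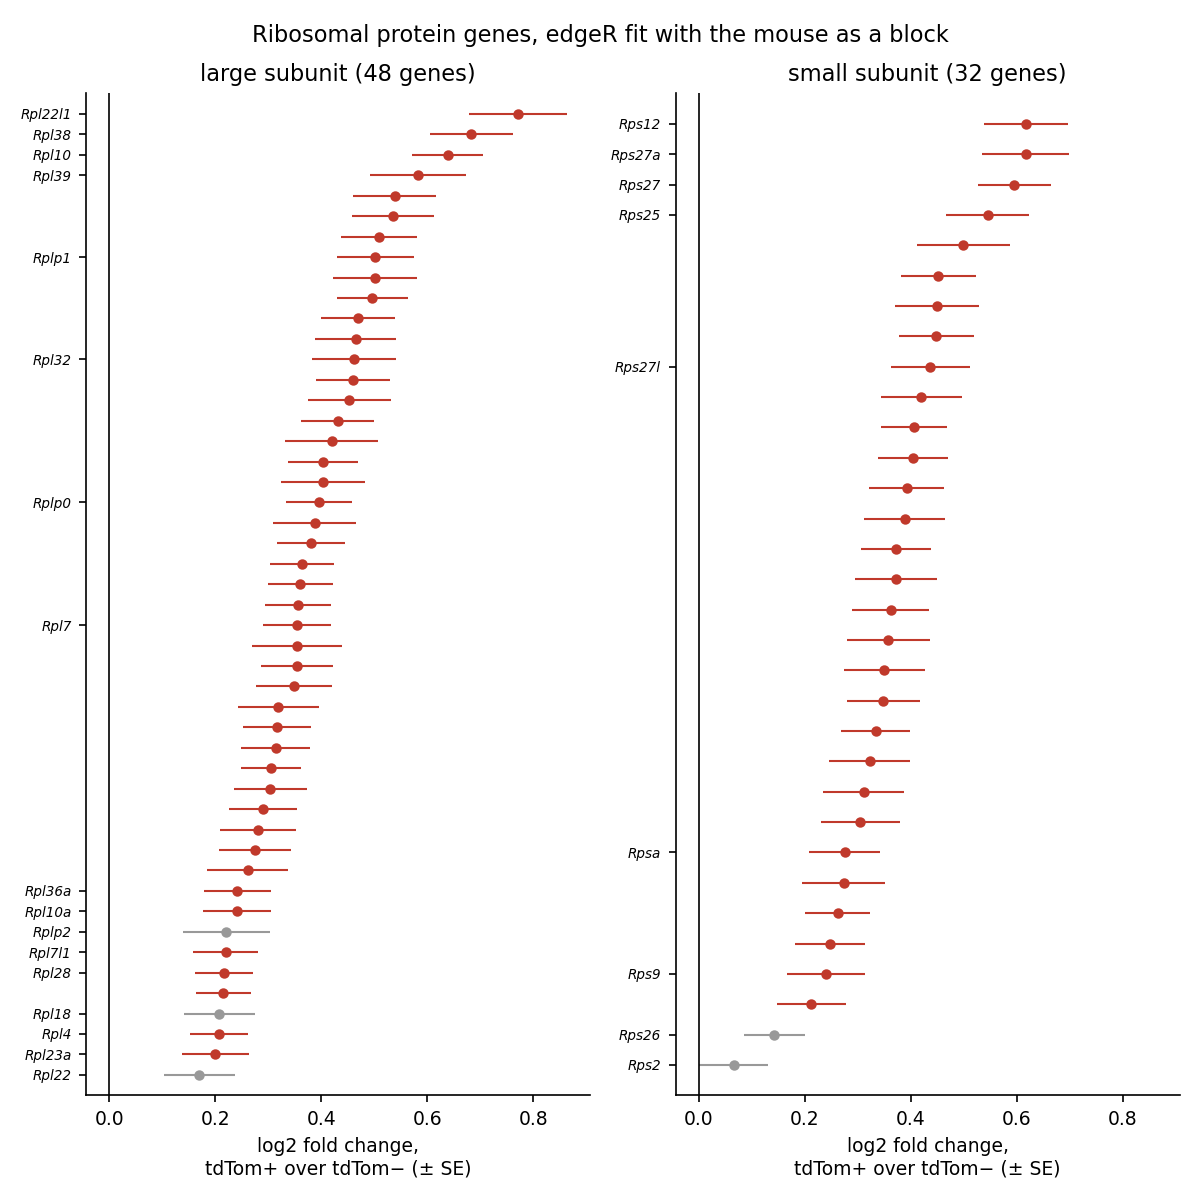
Log2 fold change of tdTom+ over tdTom− cells (horizontal axis, with its standard error) for the 48 large subunit and 32 small subunit genes tested, in 8 mice. Red points passed an adjusted p under 0.01 and grey points did not, and genes named in the text are labelled; all 80 lie above 0.

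Genes of both subunits were higher. Of the 48 large subunit genes 45 were higher, with a median log2 fold change of 0.36, and of the 32 small subunit genes 30 were higher, with a median of 0.37. The 4 genes on the X chromosome were all higher, with a median of 0.42, beside 71 of 76 on autosomes with a median of 0.36. The order of the genes by level changed little between the populations. Over the 80 genes the mean CPM per kilobase of exon in tdTom+ and tdTom− cells had a Spearman rho of 0.992. This is a description across genes that share the same libraries. Levels ran from 30.0 to 1892 CPM per kilobase in tdTom+ cells, while the largest fold difference was 1.71. A rho near 1 follows from so wide a range and says little about single genes.

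The set as a whole took a larger share of the counts in tdTom+ cells. The 83 genes held 3.27% to 5.39% of all gene counts in tdTom+ libraries, with a median of 3.54%, and 2.82% to 3.39% in tdTom− libraries, with a median of 3.04%. The mean shares were 3.82% ± 0.73 and 3.03% ± 0.20 (SD, n = 8 mice each). The ranges overlapped only through mouse 4, whose tdTom+ library was the lowest of its group and whose tdTom− library was the highest of the other.

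**Figure D2:**
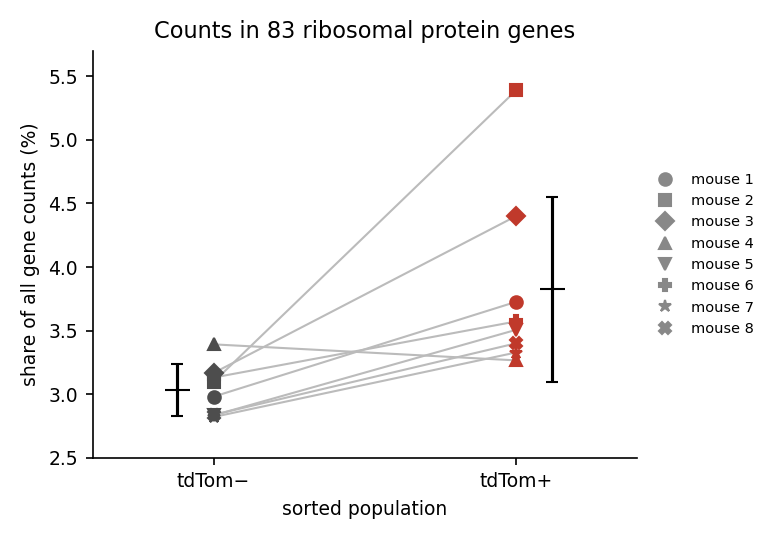
Share of all gene counts in the 83 ribosomal protein genes (vertical axis, percent) in tdTom− and tdTom+ libraries, with a line joining the libraries of each of the 8 mice and bars for the mean and SD of each group. The share was higher in tdTom+ cells in 7 mice, most of all in mouse 2 (5.39% against 3.10%), and lower in mouse 4 (3.27% against 3.39%).

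The size of the difference varied between mice. In mice 1, 2 and 3 the median log2 difference over the 80 genes was 0.44, 0.79 and 0.54, and all 80 were higher in tdTom+ cells in each of the 3. In mice 5, 6, 7 and 8 it was 0.29, 0.23, 0.37 and 0.27, with 80, 77, 79 and 78 genes higher. In mouse 4 it was 0.06, with 57 of the 80 genes higher. Mouse 2 gave the largest difference of the 8 mice for 75 genes and mouse 4 the smallest for 69. The median over all genes tested lay between −0.03 and 0.03 in every mouse, and the scaling of the libraries holds it near 0.

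**Figure D3:**
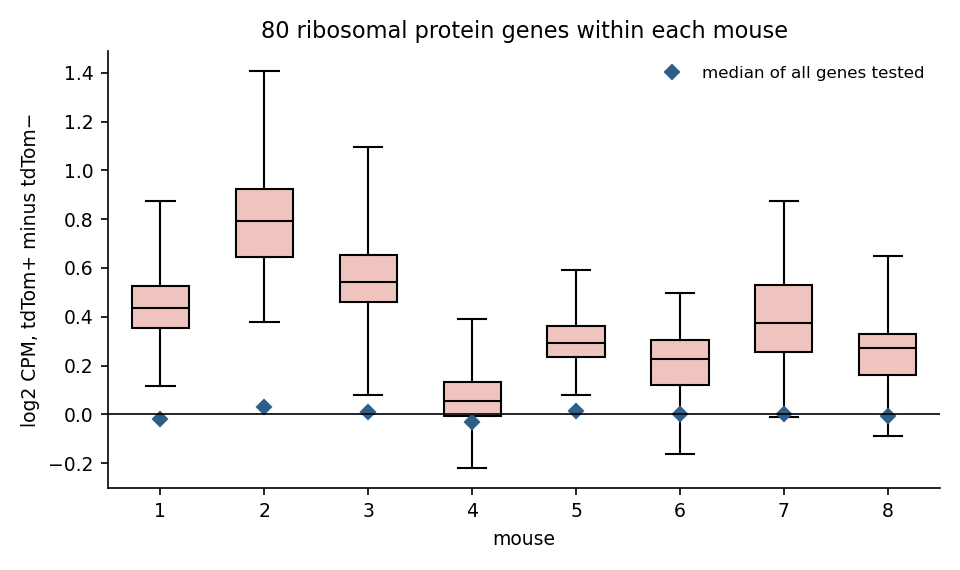
Log2 CPM of tdTom+ minus tdTom− cells (vertical axis) for the 80 genes tested within each of the 8 mice; boxes span the middle quartiles with a line at the median and whiskers reach the lowest and highest gene, and diamonds give the median of all 15841 genes. The boxes of mice 1 to 3 lie highest and that of mouse 4 lies near 0. The diamonds stay near 0, where the scaling of the libraries holds them.

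By their numbers mice 1 to 3 lie close together, mouse 4 stands alone, and mice 5 to 8 lie close together. The labels used here do not say that these sets are batches. Fitted on their own, mice 1 to 3 gave 74 genes higher with a median log2 fold change of 0.59. Mice 5 to 8 gave 62 genes higher with a median of 0.28. The share of all genes that passed in these fits is not given here, and the sets differ in size, so the counts are not compared. The difference between the sets was not tested, and mouse 4 as a set of 1 mouse gave no fit. Without mouse 4, 79 of the 80 genes were higher, with a median of 0.43. Mouse 4 also had the lowest share of mitochondrially encoded counts in both groups (2.23% in tdTom+ and 3.74% in tdTom− cells) and mouse 2 the highest (6.92% and 9.97%), and the part of this in the ribosomal values was not tested. With every library thinned to the smallest total 76 genes were higher, with a median of 0.37.

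Gene by gene, 56 of the 80 were higher in tdTom+ cells in all 8 mice, where 25.4% of all genes tested were, 20 were higher in 7 mice, 3 in 6 and 1 in 5. For 8 of the 80 genes every tdTom+ library lay above every tdTom− library, a smaller share than the 15.2% of all genes tested. These were 8 of the 48 large subunit genes, close to that share, and 0 of the 32 small subunit genes. The median log2 fold changes of the subunits were close, at 0.36 and 0.37. Without mouse 4 the groups did not overlap for 22 genes, 16 of the large and 6 of the small subunit, where 17.0% of all genes tested did not overlap.

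The ribosomal stalk of the large subunit recruits and activates the elongation factors. Rplp0, which forms its base, lies at chr5:115559467-115563727 (GRCm38, plus strand) and was the most abundant member by counts. It had 1309, 1418 and 1892 CPM (lowest, median and highest) in tdTom+ and 1086, 1118 and 1223 CPM in tdTom− libraries, so the groups did not overlap, and its log2 fold change was 0.40 ± 0.06 (SE, edgeR adjusted p = 2.44e-05). Rplp1, an acidic protein that binds Rplp0 together with Rplp2, ran from 767 to 1390 CPM (median 854) against 613 to 728 CPM (median 638), again without overlap, at 0.50 ± 0.07 (adjusted p = 8.69e-06). Its partner Rplp2 did not pass the test, with a log2 difference of 0.22 ± 0.08 (adjusted p = 0.0241). Rplp2 ran from 375 to 739 CPM (median 421) in tdTom+ and from 336 to 499 CPM (median 390) in tdTom− cells, with the groups overlapping and 6 of 8 mice higher in tdTom+ cells. It passed without mouse 4, at 0.29 (adjusted p = 0.00341), without mouse 6, at 0.28 (adjusted p = 0.00621), and with GC content and length corrected, at 0.28 (adjusted p = 0.00598). Rpsa, the small subunit protein also known as the laminin receptor, ran from 674 to 1037 CPM (median 779) against 622 to 744 CPM (median 655), overlapping, and was higher by 0.28 ± 0.07 (adjusted p = 0.00168).

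The largest difference of the set was that of Rpl22l1 (chr3:28805436-28807424, plus strand), a paralog of the large subunit gene Rpl22 that can take its place in the ribosome. Rpl22l1 had 73.3, 116 and 194 CPM (lowest, median and highest) in tdTom+ and 58.6, 64.8 and 84.1 CPM in tdTom− libraries. The tdTom+ library of mouse 4 was the only one within the tdTom− range, and all 8 mice had more of it in tdTom+ cells, with a log2 fold change of 0.77 ± 0.09 (adjusted p = 1.01e-06). Rpl22 (chr4:152325742-152334071, plus strand) had 194, 211 and 334 CPM against 180, 203 and 221 CPM. Its groups overlapped widely and it did not pass, at 0.17 ± 0.07 (adjusted p = 0.0310), but did so without mouse 4, at 0.24 (adjusted p = 0.00173).

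The balance between the paralogs was compared within each library. The ratio of Rpl22l1 to Rpl22 counts was 0.378 to 0.605 (median 0.504) in tdTom+ and 0.267 to 0.410 (median 0.328) in tdTom− libraries. All 8 mice had the higher ratio in tdTom+ cells, by a log2 difference of 0.60 ± 0.17 (SD, n = 8 mice), which is 1.52-fold. An exact two-sided permutation test over the signs of the 8 within-mouse differences gave p = 0.007812, the smallest it can give. Its adjusted p over the 3 paralog pairs was 0.02344, which is not under the 0.01 used for the genes. With 8 mice this could fall under 0.01 only if all 3 pairs reached that smallest p.

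**Figure D4:**
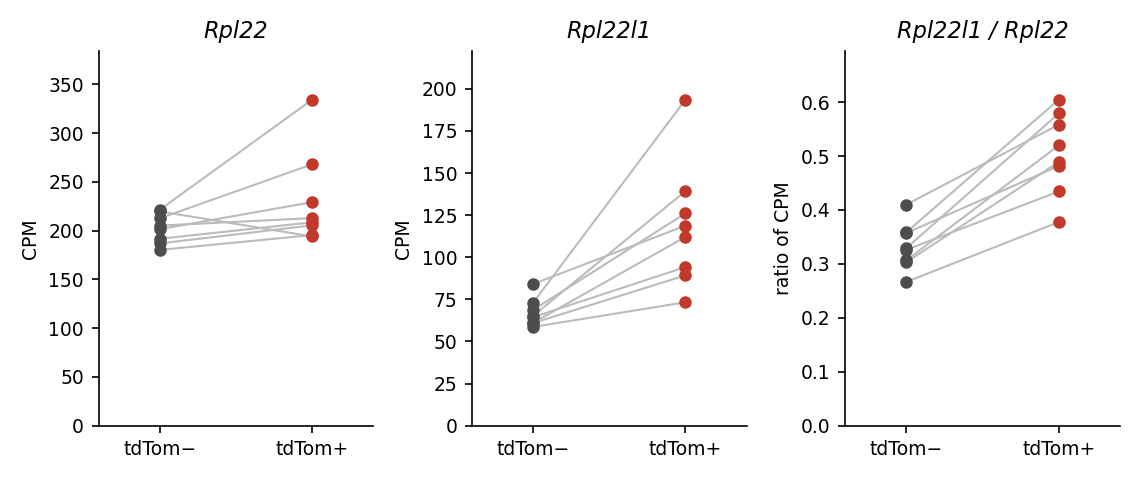
CPM of Rpl22 and Rpl22l1 and the ratio of the latter to the former (vertical axes, from 0) in tdTom− and tdTom+ libraries, with lines joining the libraries of each of the 8 mice. Rpl22l1 and the ratio are higher in tdTom+ cells in all 8 mice, while the Rpl22 values of the groups overlap.

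In the other pairs the mean ratio was lower in tdTom+ cells, and with the same limit of the test neither adjusted p was under 0.01. Rps27l, a paralog of the small subunit gene Rps27 known as a p53 target, was higher in tdTom+ cells, from 64.7 to 146 CPM (median 100.3) against 59.0 to 90.8 CPM (median 71.9), by 0.44 ± 0.08 (adjusted p = 6.12e-05). Rps27 itself was higher still, from 316 to 723 CPM (median 384) against 244 to 362 CPM (median 269), by 0.60 ± 0.07 (adjusted p = 6.47e-07). The groups of both genes overlapped. The Rps27l to Rps27 ratio, at medians of 0.232 and 0.264, was lower in tdTom+ cells in all but 2 mice, with a log2 difference of −0.16 ± 0.14 (SD, n = 8, exact permutation p = 0.03125, adjusted p = 0.03125).

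Rpl7l1 is a nucleolar relative of Rpl7 and the member with the lowest level per kilobase. It ran from 68.6 to 93.0 CPM (median 76.6) against 59.3 to 76.0 CPM (median 66.4), overlapping, and was higher by 0.22 ± 0.06 (adjusted p = 0.00438). Rpl7 ran from 686 to 1100 CPM (median 807) against 623 to 733 CPM (median 664) and was higher by 0.35 ± 0.06 (adjusted p = 9.42e-05). The ratio of the pair differed by −0.13 ± 0.11 (SD, n = 8, exact permutation p = 0.01562, adjusted p = 0.02344), with 1 of 8 mice in the other direction. With the counts of pseudogenes that match Rpl7l1 by sequence added, Rpl7l1 no longer passed (0.12, edgeR adjusted p = 0.0296). With only pseudogenes named after the members added, it still passed (0.23, adjusted p = 0.00318).

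The 3 members that failed the filter are paralogs of restricted expression. Rpl10l and Rpl39l, known from testis, had 0 counts in all 16 libraries, which allows up to 0.124 to 0.182 CPM in tdTom+ and 0.0655 to 0.164 CPM in tdTom− libraries (3 counts each, counting error only). Rpl3l, known from heart and skeletal muscle, had 8 counts in all. Their parents were well expressed.

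Among large subunit genes, Rpl38, known for its role in the translation of Hox mRNAs in the embryo, followed Rpl22l1. It ran from 139 to 312 CPM (median 171) in tdTom+ and from 105 to 129 CPM (median 108) in tdTom− libraries, with no overlap, and its log2 fold change was 0.68 ± 0.08 (adjusted p = 5.66e-07). Rpl10, an X-linked gene for a protein that joins the large subunit late in its assembly, ran from 427 to 754 CPM (median 513) against 318 to 384 CPM (median 345), again with no overlap, at 0.64 ± 0.07 (adjusted p = 2.06e-07). Rpl39, also X-linked, encodes a very small protein of the exit tunnel. It ran from 171 to 466 CPM (median 239) against 141 to 195 CPM (median 162) with overlapping groups, at 0.58 ± 0.09 (adjusted p = 2.16e-05).

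The leading small subunit genes overlapped between groups although each was higher in all 8 mice. Rps12 ran from 458 to 1156 CPM (median 663) in tdTom+ and from 403 to 535 CPM (median 428) in tdTom− libraries, at 0.62 ± 0.08 (adjusted p = 2.22e-06). Rps27a, which is made as a fusion with ubiquitin, ran from 266 to 728 CPM (median 391) against 229 to 326 CPM (median 252), at 0.62 ± 0.08 (adjusted p = 3.95e-06). Matched pseudogenes held 231% of the reads that Rps27a itself held, and with these added its log2 fold change was 0.40 (adjusted p = 2.60e-05). Rps25, a protein needed for initiation at some internal ribosome entry sites, ran from 267 to 679 CPM (median 371) against 229 to 314 CPM (median 254), at 0.55 ± 0.08 (adjusted p = 8.33e-06).

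The highest levels per kilobase of exon in both populations were those of Rplp1 (mean 1892 CPM per kilobase in tdTom+ and 1313 in tdTom− cells), Rps12 (1499 and 947) and Rpl32 (1277 and 897). Over the 80 genes the medians were 310 and 236 CPM per kilobase. Rpl32, a large subunit protein, was higher by a log2 fold change of 0.46 ± 0.08 (adjusted p = 6.07e-05). Exon lengths are those of the count files, which join the exons of all transcripts of a gene.

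The 8 smallest log2 fold changes that passed lay between 0.20 and 0.24. They include Rpl23a, which sits where the new chain leaves the ribosome (0.20 ± 0.06, adjusted p = 0.00924), Rpl4, which lines the exit tunnel (0.21 ± 0.05, adjusted p = 0.00266), Rpl28 (0.22 ± 0.05, adjusted p = 0.00194) and Rpl7l1. Also among them were Rps9, at the path by which mRNA enters (0.24 ± 0.07, adjusted p = 0.00795), and Rpl10a, the protein of the L1 stalk (0.24 ± 0.06, adjusted p = 0.00312). All 8 overlapped between the groups. Rpl4, for example, had 1125, 1231 and 1367 CPM (lowest, median and highest) in tdTom+ and 983, 1054 and 1254 CPM in tdTom− libraries. Of the 8, Rpl7l1 alone passed without the mouse as a block, and none passed with total counts in place of scaling factors. With GC content and length corrected, Rpl23a did not pass (0.12, adjusted p = 0.0352). With 1 mouse left out, Rpl23a and Rps9 each lost the call for 6 of the 8 mice. Their highest adjusted p values, 0.0268 and 0.0265, came without mouse 3. Rpl10a lost it without mouse 3 (adjusted p = 0.0127) and Rpl7l1 without mouse 1, 3 or 7 (adjusted p = 0.0142, 0.0177 and 0.0109), while these kept their direction.

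The members that did not pass were Rplp2, Rpl22 and Rpl18 of the large and Rps26 and Rps2 of the small subunit. Rps2, which lies at the mRNA entry of the small subunit, had the smallest difference, 0.07 ± 0.07 (adjusted p = 0.383), from 497 to 643 CPM (median 544) against 466 to 617 CPM (median 508), with 5 of 8 mice higher in tdTom+ cells. Rps26, at the mRNA exit, differed by 0.14 ± 0.06 (adjusted p = 0.0348) and by 0.02 with GC content and length corrected (adjusted p = 0.781), from 283 to 428 CPM (median 311) against 271 to 331 CPM (median 297). Rpl18 differed by 0.21 ± 0.07 (adjusted p = 0.0114), from 411 to 657 CPM (median 425) against 369 to 455 CPM (median 406). Without mouse 4 Rps26 and Rpl18 passed (adjusted p = 0.00247 and 0.00177) and Rps2 did not (0.13, adjusted p = 0.0835). Rpl18 also passed without mouse 6 (adjusted p = 0.00542) and with DESeq2 (adjusted p = 0.00346), and with the GC and length correction (adjusted p = 0.00952). Under that correction Rps2 differed by 0.12 (adjusted p = 0.105).

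Shorter members had larger differences. Over the 80 genes the log2 fold change had a Spearman rho of −0.399 with coding length (Pearson r = −0.41 on log2 length), beside −0.0853 over 12739 genes with a coding sequence. The 27 genes of 138 to 405 coding bases had a median log2 fold change of 0.45, the 26 genes of 405 to 582 bases a median of 0.35, and the 27 longest, up to 1257 bases, a median of 0.31. All the groups lay above the median of all genes, with 24, 25 and 26 members higher. The rho was −0.0012 with GC content and −0.0776 with the mean level, and these are descriptions across genes that share the same libraries. With GC content and exon length corrected by splines, 74 genes were higher, with a median of 0.34. Coding length itself was not corrected for.

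The members were also split by the run of C and T at the start. The 27 genes with a run of at least 8 bases had a median log2 fold change of 0.40, and the 33 tested genes with a shorter one had 0.36, without a test. Of the other letters searched on both strands of the 300 bases, CCGGAAG, bound by ETS factors such as GABP, was in 39.7% of the 63 promoters against 9.12% of all, and GGGCGG, bound by SP1, was in 60.3% against 35.9%. AAGATGG, from the YY1 motif, was in 14.3% against 6.48%, and TATAAA in 9.52% against 14.2%. CCGGAAG and AAGATGG can overlap by 3 bases. These matches are descriptions of sequence, not sites shown to be bound.

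Ribosomal protein genes have many processed pseudogenes, and reads of 50 bases can fit both. Of the 83 genes, 80 were the best match of at least 1 of 1372 pseudogenes. The search took genes annotated or named as pseudogenes, and also the copies Rps27rt and Rpl37rt. Together the pseudogenes held 1.57% to 2.52% of all counts in tdTom+ and 1.35% to 1.60% in tdTom− libraries, or 0.468 to 0.480 and 0.472 to 0.483 counts per count in the genes themselves. These ratios overlapped between the populations. For 10 genes the pseudogenes held more counts than the gene. With all of them added to their parents 75 genes were again higher, with a median of 0.38. The log2 fold change fell by over 0.1 for 2 genes, Rps27a and Rpl7l1, and rose by over 0.1 for 1, Rpl36a (0.24 and 0.39 with them), which is named here after its values were seen and did not pass without mouse 3 (0.21, adjusted p = 0.0112).

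Other proteins of the same ribosome carry different symbols. Rack1, a signalling scaffold on the small subunit, had 1264, 1363 and 2036 CPM (lowest, median and highest) in tdTom+ and 1025, 1063 and 1187 CPM in tdTom− libraries, with no overlap, and was higher by 0.45 ± 0.07 (adjusted p = 2.69e-05). Rpl36al, a close copy of Rpl36a, ran from 126 to 176 CPM (median 146) against 73.6 to 95.5 CPM (median 83.8), also with no overlap, and was higher by 0.81 ± 0.06 (adjusted p = 5.97e-10), more than any of the 80 members. Rps27rt, an intronless copy of Rps27 whose reads can fall on either gene, was higher by 0.57 ± 0.06 (adjusted p = 3.71e-07). Fau, the gene of ribosomal protein S30 fused to a relative of ubiquitin, did not pass. It had 251, 294 and 546 CPM against 282, 314 and 417 CPM, with 3 of 8 mice higher in tdTom+ cells (0.02 ± 0.07, adjusted p = 0.803).

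Among the lists of translation and ribosome production genes outside the ribosome, the elongation list had the highest median. It holds the factors Eef1a1, Eef1b2, Eef1d, Eef1g and Eef2, all of them higher. It also holds genes with related roles or symbols, such as Eef2k and the Dph genes. The counts of each list here and below stand beside 28.4% higher and 28.9% lower of all genes tested. Of 15 elongation genes tested 9 were higher, 2 lower and 4 did not pass, with a median log2 fold change of 0.23. Dph3, which acts in making the diphthamide of eEF2, had the largest change, 1.13 ± 0.06 (adjusted p = 2.86e-11), from 45.0 to 76.4 CPM against 24.1 to 30.8 CPM. Eef2k, the kinase that inhibits eEF2, had the lowest, −0.76 ± 0.06 (adjusted p = 4.02e-09), from 48.1 to 63.2 CPM against 82.4 to 109 CPM. Neither of them overlapped between the groups. Of 22 other genes with TOP mRNAs, a list that shares genes with the ones above, 11 were higher and 2 lower, with a median of 0.18. Eef1a1, which carries aminoacyl-tRNA to the ribosome, led it with 5281 to 7048 CPM against 3974 to 4448 CPM (0.53 ± 0.07, adjusted p = 1.77e-06). Hnrnpa1, a splicing regulator, was the lowest of those that passed (−0.37 ± 0.05, adjusted p = 4.15e-06).

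Initiation factors were mixed: of 40 tested 14 were higher, 4 lower and 22 did not pass, with a median of 0.10. Eif2b2, a subunit of the exchange factor of eIF2, was the highest (0.50 ± 0.05, adjusted p = 1.54e-07), and Eif4e3, a cap-binding protein, the lowest (−0.98 ± 0.10, adjusted p = 1.87e-07). Of 11 genes for the rescue of stalled ribosomes 8 were higher and 1 lower, with a median of 0.20. They run from Pelo, which splits ribosomes that cannot go on (0.67 ± 0.06, adjusted p = 2.82e-08), to Gtpbp2 (−0.83 ± 0.07, adjusted p = 1.12e-08).

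The genes that build ribosomes went both ways. Of 52 biogenesis factors 9 were higher, 10 lower and 33 did not pass, with a median log2 fold change of 0.00. Both counts are smaller shares than the 28.4% higher and 28.9% lower of all genes tested. Bysl, a factor for the small subunit, was the highest (0.69 ± 0.07, adjusted p = 4.87e-08), and Utp20, of the small subunit processome, the lowest (−0.89 ± 0.05, adjusted p = 1.97e-11), at 46.4 to 70.1 CPM against 89.4 to 124 CPM. Of 11 genes of RNA polymerase I and its factors, which transcribe ribosomal RNA, 5 were higher and 3 lower, with a median of 0.09, from Taf1a (0.46 ± 0.11, adjusted p = 0.00148) to Taf1d (−0.34 ± 0.09, adjusted p = 0.00322). Taf1d lost its call without mouse 1, 4 or 6 (adjusted p = 0.0118, 0.0136 and 0.0111). Proliferation markers, as given above, were lower in tdTom+ cells, at a summed 675 to 1028 CPM against 826 to 1446 CPM.

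Of 18 regulators of ribosome production around MYC and mTOR 6 were higher, 1 lower and 11 did not pass, with a median of 0.09. The highest was Pdcd4, an inhibitor of the helicase eIF4A (0.56 ± 0.06, adjusted p = 4.99e-07), at 149.9 to 173 CPM against 90.7 to 126 CPM. The lowest was Max, the partner with which MYC binds DNA (−1.15 ± 0.06, adjusted p = 2.99e-11), at 55.5 to 62.5 CPM against 92.6 to 150.2 CPM. Myc and Mtor, named for their roles after their values were seen, did not pass (−0.08 ± 0.08, adjusted p = 0.395, and −0.05 ± 0.05, adjusted p = 0.427). Without mouse 4, whose tdTom− library was the lowest for Max, Max differed by −1.19.

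The proteins of the mitochondrial ribosome, a separate particle that translates the mitochondrial genome, showed no common direction. Of 76 genes tested 17 were higher, 21 lower and 38 did not pass, with a median log2 fold change of 0.02. For the cytosolic ribosome 75 of 80 were higher and 0 lower, and of all genes tested 28.4% were higher and 28.9% lower. Mrpl52 was the highest (0.70 ± 0.07, adjusted p = 1.34e-07) and Mrps6 the lowest (−1.40 ± 0.05, adjusted p = 6.49e-14), at 15.0 to 23.4 CPM against 37.7 to 57.8 CPM. Neither gene overlapped between the groups. The cytosolic genes thus spanned a narrower range (0.07 to 0.77) than the mitochondrial ones (−1.40 to 0.70).

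**Figure D5:**
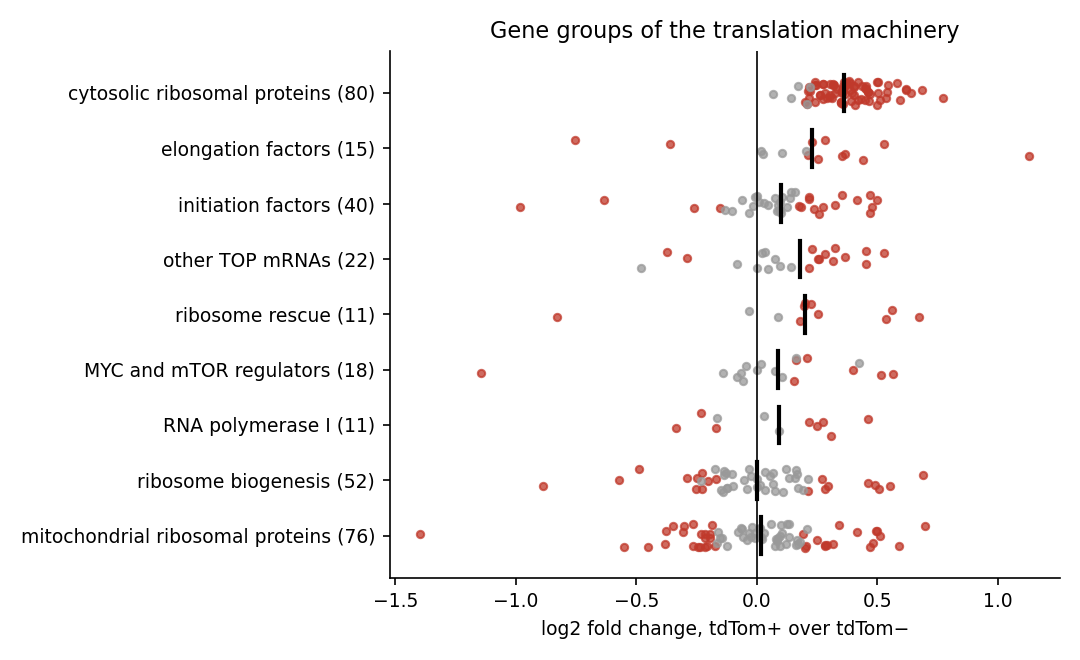
Log2 fold change of tdTom+ over tdTom− cells (horizontal axis) for the genes of each group, with the number tested in brackets; red points passed an adjusted p under 0.01, grey points did not, and black bars mark medians. All 80 cytosolic ribosomal protein genes lie above 0, with a median of 0.36, while biogenesis factors and mitochondrial ribosomal proteins lie on both sides with medians of 0.00 and 0.02. The group labelled elongation factors also holds genes with related roles or symbols, such as Eef2k and the Dph genes.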

How the data were processed

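Counts per gene, as deposited, were used for 16 libraries of 8 mice. Per the labels and the file headers, the authors aligned single-end reads of 50 bases from stranded mRNA libraries to GRCm38 with TopHat2 2.1.1 and made these counts with featureCounts (1.5.0-p1 in the file headers, Subread 1.5.2 in the submitters' processing notes) on the reverse strand, from primary alignments only. A read that fits a gene and its pseudogene alike is thus counted at 1 of its places, so levels of single genes are uncertain. The counts were not normalized. GENCODE M21 (GRCm38) gave symbols for 44671 genes.

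Counts of all genes were filtered with filterByExpr, scaled by TMM and fitted with glmQLFit and glmQLFTest of edgeR 4.0.16 (R 4.3.3), with the mouse as a block, since both populations came from the same animal; samples of a mouse deviated from their group means together (correlation 0.223 to 0.408, at most 0.168 between mice). Calls are at a Benjamini-Hochberg adjusted p under 0.01 over 15841 genes, of 27559 with at least 1 count. CPM use TMM factors, and log2 CPM a prior count of 2. No libraries of a group agreed within sampling noise (lowest chi-square per degree of freedom 11.7). An alternative fit kept the block and corrected GC content and exon length by splines of 5 degrees of freedom. Others were no block, DESeq2 1.42.0, limma-voom (limma 3.58.1), other scalings and filters, thinned libraries, mice left out, and pseudogene counts added. The last was done for pseudogenes named after a gene and, as an alternative chosen after seeing the data, for those matched with BLAST 2.17.0 (at least 80% identity over 100 bases). The fits were tested on simulated counts. Summaries used scipy 1.17.1, pandas 2.3.3 and numpy 2.4.6 under Python 3.11.15.

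The members and gene lists were chosen with earlier results of these data known. Genes named are the stalk genes and Rpsa, paralogs with their parents, the 8 largest and 8 smallest changes among members past the threshold, the members that did not pass, the 3 highest levels per kilobase, members that failed the filter, ribosomal proteins with other symbols, and the largest change each way in each list. Some genes that this rule would name are not reported here. Polr1f, Polr1g and Polr1h found no match. The other tissue and genotypes of the study are not analysed here.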

Additional observations from a re-analysis of the deposited data

Results flagged for a closer look

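Of 108 groups of 8 libraries, for 54 genes and other measures in each population, 2 held a library far from the others, where chance alone would give about 5.4. Both were of the tdTom− library of mouse 4. Its total count was 45791503, against 18318172 to 20668605 in the other tdTom− libraries, and its level of Max was 6.53 on the log2 CPM scale, against 6.90 to 7.23. None of the ribosomal protein genes examined, nor their share of the counts, had such a library in either population.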

How the results depend on the processing

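The fit without the mouse as a block, in place of the pairing, gave 54 of 80 genes higher and a median log2 fold change of ribosomal protein genes of 0.39. The count stayed within 1.5 times of 75 under every alternative run, from 54 to 79, and 0 genes were lower in each. It was 61 with total counts in place of scaling factors, where the median of the 80 genes was 0.31 and that of all genes −0.05. Leaving out each mouse in turn gave 66 to 79 genes and medians of 0.32 to 0.43. Except for the fit without the block, the share of all genes that passed is not given for the alternatives. Mice 1 to 3 alone gave a median of 0.59, against 0.36 in all mice, and the cause was not tested. The mean share of counts was 4.65% and 3.63% in tdTom+ and tdTom− cells with mitochondrial genes and the 20 most abundant other genes out of the total, and 4.57% and 3.62% with named pseudogenes added. Of 1223 values for 51 named genes under the alternatives 1133 kept their direction and side of the threshold, 60 lost the call, 21 gained it and 9 reversed, all of these in genes not called. Fau was at −0.0101 with GC content and length corrected, −0.0282 with total counts, −0.17 in mice 5 to 8 alone and −0.0233 to 0.0687 with 1 mouse left out. Mtor was at 0.0132 with that correction, and Myc at 0.11 in mice 5 to 8 alone and −0.13 to 0.0005 with 1 mouse left out. Fau in mice 5 to 8 had an adjusted p of 0.015. The depth limits what can be said of Rpl3l, Rpl10l and Rpl39l.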
